A study of Mus musculus with 3 samples.

Results

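The 10 genes described here encode the retinaldehyde dehydrogenases (*Aldh1a1*, *Aldh1a2* and *Aldh1a3*), the cellular retinoic acid binding proteins (*Crabp1* and *Crabp2*), the retinoic acid receptors (*Rara*, *Rarb* and *Rarg*) and 2 of the retinoid X receptors (*Rxra* and *Rxrb*). They were chosen by name as members of these families, and all 10 were found among the 22698 genes listed for each library. The libraries were made from untreated melan-a cells, an immortalised line of mouse melanocytes, in 3 replicates labelled 1, 3 and 4. All 3 replicates shared the strain background C57BL/6J and a label that traces the cells to Ink4a-ARF-/- mice. The cells were grown in RPMI 1640 with 10% serum, 200 nM 12-O-tetradecanoylphorbol 13-acetate (a phorbol ester that activates protein kinase C) and 200 pM cholera toxin (which raises cAMP). Both agents were therefore present in every library, and there was no second condition, so levels were compared between genes and not between treatments. Nothing in the labels says whether the replicates came from separate cultures, so the spread between them may be technical.

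Retinoic acid is made from vitamin A in successive steps. Retinol is oxidised reversibly to retinaldehyde, and the ALDH1A enzymes then oxidise retinaldehyde irreversibly to all-trans retinoic acid. CRABP proteins bind retinoic acid in the cytoplasm, CYP26 enzymes break it down, and in the nucleus it binds a RAR paired with a RXR on direct repeats of a short half-site in DNA. In skin and in melanocyte cultures retinoic acid is known to alter growth and pigmentation.

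Levels are given as FPKM, fragments counted per length of transcript and per depth of the library, a unit that corrects for gene length and so allows genes to be set side by side. The depth behind the values, worked out from the rounding of low values, came to about 53900000, 47000000 and 66600000 reads for replicates 1, 3 and 4. Because the authors scaled the libraries to each other (TMM scaling), these are scaled depths and need not equal the reads counted. A level was called measurable where it reached the value of 3 reads in every replicate, which for a gene of 1 kb is 0.0557, 0.0638 and 0.0450 FPKM in replicates 1, 3 and 4. These floors cover counting error only. The melanocyte identity of the cells was checked with 10 markers, all of which were measurable. Of these, 9 stood at 1 FPKM or more, with *Kit* the exception at 0.59 to 0.78, and their sum was 5793 to 6633 FPKM. Of 8 markers of retinal pigment epithelium, the other pigment cell that handles retinoids, 3 were measurable and their sum was 4.91 to 5.12 FPKM. *Rdh5*, which oxidises 11-cis retinol, stood at 3.69 to 3.84 FPKM and *Rlbp1*, which binds 11-cis retinoids, at 1.08 to 1.15, while *Rgr* and *Otx2* were at 0 in all 3 replicates. The 5 keratinocyte markers summed to 0.36 to 0.70 FPKM, with 1 measurable and *Krt1* and *Trp63* at 0, and the 6 fibroblast markers summed to 1.61 to 1.95 FPKM, with 4 measurable, *Col1a1* at 1.33 to 1.77 and *Lum* at 0. *Cdkn2a*, the gene of the Ink4a-ARF locus, was listed at 19.24, 16.49 and 24.32 FPKM in replicates 1, 3 and 4. Values per gene do not show which of its exons were read.

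In melan-a cells, 8 of the 10 retinoid genes were measurable, against 57.7% of the 22324 genes that could be assessed. The same 8 were above 0 in every replicate (60.1% of all genes) and at 1 FPKM or more in every replicate (44.1% of all genes). *Rarg* was the most abundant at 89.0 FPKM ± 15.6 (SD, n = 3), and *Aldh1a3* was next at 39.6 ± 1.27. The remaining receptors lay between 13.8 and 22.8 FPKM on average, *Aldh1a1* lay below them and *Crabp2* was last of the measurable genes. *Aldh1a2* and *Crabp1* were each listed at 0 in 2 of 3 replicates. For scale, the median gene of the files had a mean of 0.277 FPKM, and the median among genes at 1 FPKM or more was 11.2 FPKM.

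**Figure D1:**
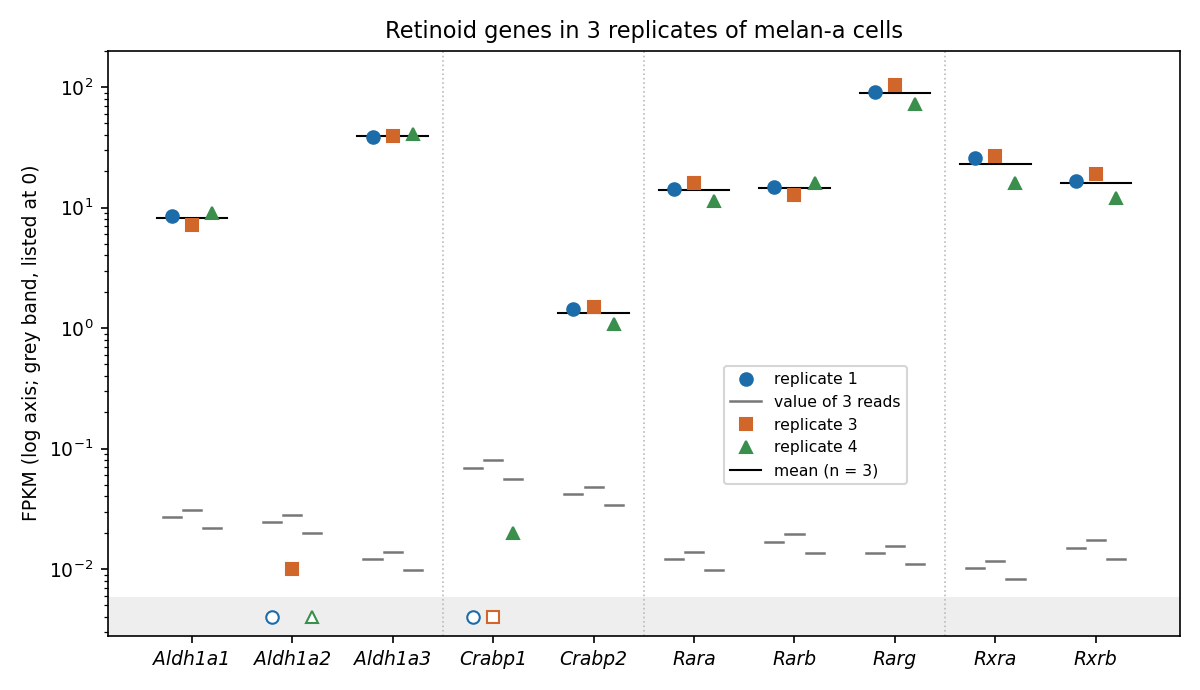
FPKM (log axis) of the 10 genes in replicates 1, 3 and 4, with the mean (long black bar) and the value of 3 reads in each replicate (short grey bars); open symbols in the grey band are values of 0. *Rarg* lies highest in every replicate, between 72.66 and 103.79 FPKM, while all values of *Aldh1a2* and *Crabp1* lie below their 3-read marks.

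ALDH1A3, which has a high preference for all-trans retinaldehyde, was the main retinaldehyde dehydrogenase at the RNA level. *Aldh1a3* (mm9 chr7:73535778-73572403, minus strand) was listed at 38.29, 39.58 and 40.83 FPKM in replicates 1, 3 and 4. The 3 values lay close together, with a coefficient of variation of 3.21%, against a middle range of 5.76% to 16.4% for the 1223 genes of like level. By the same measure *Rara*, *Rarg*, *Rxra* and *Rxrb* lay above their middle ranges, and *Aldh1a1*, *Rarb* and *Crabp2* within theirs. The spread between replicates moved with GC content, as described below. *Aldh1a3* ranked 1744 of 22698 genes by mean level.

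*Aldh1a1* (mm9 chr19:20676451-20717952, plus strand), a cytosolic enzyme that also acts on other aldehydes, was listed at 8.43, 7.13 and 8.95 FPKM, with a mean of 8.17 ± 0.937 and a rank of 5989. Every *Aldh1a3* value lay above every *Aldh1a1* value, and the mean of *Aldh1a3* was 4.84-fold higher. The log2 ratio of *Aldh1a1* to *Aldh1a3* was -2.18, -2.47 and -2.19 in replicates 1, 3 and 4, a mean of -2.28 ± 0.17 (SD). The direction held in 3 of 3 replicates. An exact two-sided sign-flip permutation test gave p = 0.25, the smallest value that 3 replicates allow, and 0.286 after Benjamini-Hochberg adjustment over the 8 pairs of family members compared, so no pair could pass a threshold of 0.05.

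*Aldh1a1* has a close neighbour on chromosome 19, *Aldh1a7*, which belongs to the same family in mouse but is not known as a major source of retinoic acid. Of the 50-base windows of the *Aldh1a1* transcript, 7.53% also occur in *Aldh1a7*, so part of the reads cannot be placed between them. *Aldh1a7* was listed at 7.89, 6.14 and 8.59 FPKM, below *Aldh1a1* in each replicate and with the replicates in the same order. Promoters of the pair are nearly alike as well over the 90 bases compared. With 2 promoters listed for *Aldh1a1*, the most alike combination was taken. The 90 bases before the start of each are shown to make this visible, from the RefSeq promoter table (GRCm38.p6), placed in mm9 by exact match at chr19:20676368-20676457 (plus strand) and chr19:20802047-20802136 (minus strand). Capitals mark the bases that differ, and 87 of 90 are identical.
Aldh1a1: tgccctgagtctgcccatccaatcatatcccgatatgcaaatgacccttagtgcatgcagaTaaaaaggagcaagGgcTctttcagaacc
Aldh1a7: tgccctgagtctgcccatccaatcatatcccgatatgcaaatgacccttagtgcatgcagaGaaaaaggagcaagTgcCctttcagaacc
No such sharing was found for *Aldh1a2* or *Aldh1a3*, and none of the 10 genes overlapped an exon of another gene on either strand.

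*Aldh1a2* (mm9 chr9:71063596-71144050, plus strand) encodes the enzyme that makes most of the retinoic acid of the early embryo. It was listed at 0, 0.01 and 0 FPKM in replicates 1, 3 and 4, where 3 reads would give 0.0246, 0.0282 and 0.0199. Its RNA was therefore not detectable at this depth, and no fold is given against it. *Aldh1a1* and *Aldh1a3* were each higher in 3 of 3 replicates (p = 0.25 in the exact permutation test for both). Summed over the family, ALDH1A transcripts came to 47.7 ± 1.77 FPKM, of which *Aldh1a3* made up 82.9% ± 1.58 and *Aldh1a1* 17.1% ± 1.59 (SD, n = 3).

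The binding proteins were the lowest group. *Crabp2* (mm9 chr3:87752588-87757298, plus strand), whose product carries retinoic acid towards the RARs, was listed at 1.44, 1.49 and 1.09 FPKM, a mean of 1.34 ± 0.218 and a rank of 9915. This corresponds to about 103, 93 and 96 reads. *Crabp1* (mm9 chr9:54612555-54620917, plus strand), whose product is known for holding retinoic acid in the cytoplasm and aiding its breakdown, was listed at 0, 0 and 0.02 FPKM. All of these lay below the 3-read values of 0.0694, 0.0796 and 0.0562 FPKM, so *Crabp1* was not detectable at this depth. *Crabp2* was higher in 3 of 3 replicates (p = 0.25, exact permutation test).

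Among the retinoic acid receptors, *Rarg* (mm9 chr15:102065369-102087948, minus strand) stood far above its paralogs. RARG is the main RAR of skin epidermis. *Rarg* was listed at 90.49, 103.79 and 72.66 FPKM in replicates 1, 3 and 4, and ranked 674 of 22698 genes. Replicate 3 was highest and replicate 4 lowest, and the lowest value still lay above every value of the other 9 genes.

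*Rara* (mm9 chr11:98789132-98836256, plus strand), the most widely expressed RAR, was listed at 14.14, 16.09 and 11.31 FPKM, with a mean of 13.8 ± 2.40 and a rank of 4324. Its values followed those of *Rarg*, with replicate 3 highest and replicate 4 lowest. The log2 ratio of *Rara* to *Rarg* was -2.68, -2.69 and -2.68, and the mean of *Rarg* was 6.43-fold higher (3 of 3 replicates, p = 0.25, exact permutation test).

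*Rarb* (mm9 chr14:17263356-17651381, minus strand), the RAR that retinoic acid itself is known to induce, was listed at 14.93, 12.63 and 15.95 FPKM, with a mean of 14.5 ± 1.70 and a rank of 4196. Here replicate 3 was lowest and replicate 4 highest, the reverse of *Rara* and *Rarg*. The log2 ratio of *Rarb* to *Rarg* was -2.60, -3.04 and -2.19, a mean of -2.61 ± 0.43, and *Rarg* was higher in 3 of 3 replicates (p = 0.25, exact permutation test). Between *Rara* and *Rarb* no order was seen. *Rarb* was higher in replicates 1 and 4 and *Rara* in replicate 3, with log2 ratios of *Rara* to *Rarb* of -0.08, 0.35 and -0.50, a mean of -0.07 ± 0.42 (p = 0.75, exact permutation test). Of the summed RAR transcripts, 117 ± 16.4 FPKM, *Rarg* made up 75.6% ± 2.81, *Rarb* 12.7% ± 3.22 and *Rara* 11.8% ± 0.415.

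**Figure D2:**
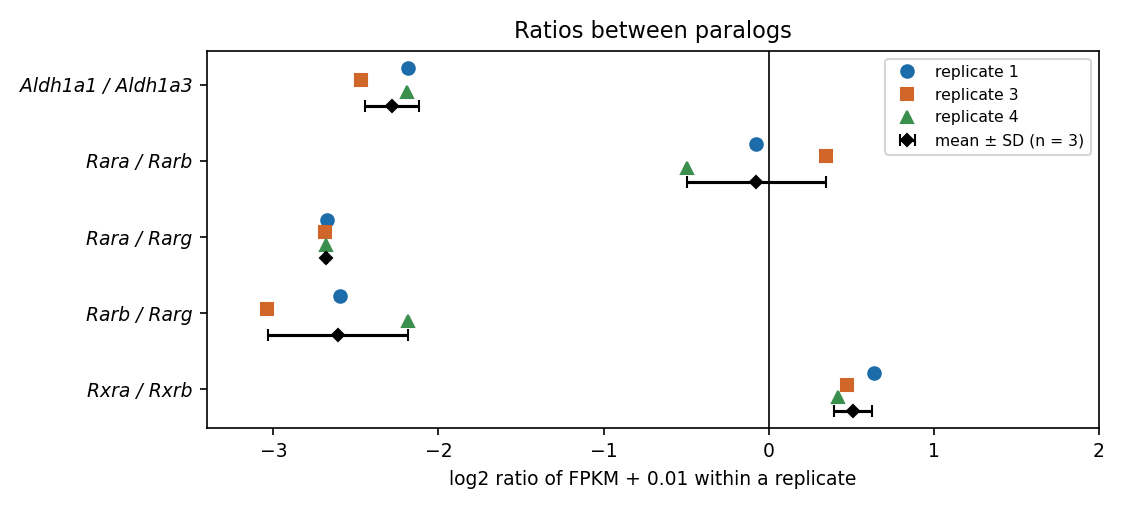
Log2 ratios of FPKM + 0.01 between family members within replicates 1, 3 and 4, with the mean and SD (n = 3); 0 is an equal level. *Rara* over *Rarg* is nearly the same in each replicate, from -2.69 to -2.68, while *Rara* over *Rarb* runs from -0.50 to 0.35 and crosses 0.

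RXRs are the shared partners of the RARs and of several other nuclear receptors. *Rxra* (mm9 chr2:27531960-27618477, plus strand), the main RXR of skin, was listed at 25.84, 26.60 and 16.04 FPKM, a mean of 22.8 ± 5.89 and a rank of 2899. *Rxrb* (mm9 chr17:34168757-34175338, plus strand), which is expressed in most tissues, was listed at 16.61, 19.14 and 11.98 FPKM, a mean of 15.9 ± 3.63 and a rank of 3907. The ranges overlapped across replicates, since *Rxra* in replicate 4 was below *Rxrb* in replicates 1 and 3. Within each replicate *Rxra* was higher, by a log2 ratio of 0.64, 0.47 and 0.42, a mean of 0.51 ± 0.11 (1.43-fold between the means; p = 0.25, exact permutation test). *Rxra* made up 58.8% ± 1.89 and *Rxrb* 41.2% ± 1.89 of their sum. The third RXR gene, *Rxrg*, which was not among the 10, was listed at 0.05, 0.04 and 0.03 FPKM, or about 6, 4 and 5 reads. RAR transcripts outnumbered those of *Rxra* and *Rxrb* per length by 2.82, 2.90 and 3.57 in replicates 1, 3 and 4, a mean of 3.09 ± 0.41, a ratio that fell to 1.75 ± 0.23 with the shortest transcript lengths described below.

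Ordered by mean level, the genes ran *Rarg*, *Aldh1a3*, *Rxra*, *Rxrb*, *Rarb*, *Rara*, *Aldh1a1* and *Crabp2*, followed by the 2 genes that were not measurable. The neighbours *Rxra* and *Rxrb*, *Rxrb* and *Rarb*, and *Rarb* and *Rara* had overlapping ranges, and the last 2 pairs held their order in 2 of 3 replicates. The ranges of the other neighbours among the measurable genes did not overlap. Similar levels in all 3 replicates were found in genes of other kinds. By Euclidean distance in log2(FPKM + 0.01), the genes nearest to *Aldh1a3* were *Lrrc8c* (distance 0.0217) and *Prr14* (0.0459), and those nearest to *Rarg* were *Shmt2* (0.0634) and *Sars* (0.0657). *Srf* (0.128) and *Ints1* (0.150) were nearest to *Rxra*, and *Lsm11* (0.0788) and *Ier5* (0.0998) to *Crabp2*. With 3 replicates of a single condition these distances mostly compare levels.

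The spread between replicates moved with the base composition of the transcripts. Over 10006 genes at 1 FPKM or more, the log2 ratio of replicate 3 to replicate 4 correlated with the GC content of the longest coding transcript at a Spearman rho of 0.78, a description across genes, which share the same 2 libraries. The GC-rich *Rxrb* (61.5% GC), *Rara* (59.2%), *Rarg* (58.8%) and *Rxra* (57.0%) were higher in replicate 3 than in replicate 4, by 0.68, 0.51, 0.51 and 0.73 on the log2 scale. *Crabp2* (50.6% GC) was also higher in replicate 3, by 0.45. *Aldh1a3* (49.9%), *Rarb* (47.9%) and *Aldh1a1* (46.2%) had log2 ratios of -0.04, -0.34 and -0.33. Of the 8 genes, 6 lay within the middle 50% of genes with GC content within 1 percentage point of theirs. *Rxra* lay above that range (0.22 to 0.52), and so did *Crabp2* (-0.15 to 0.18). The part of GC content in the differences between replicates was not tested further.

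**Figure D3:**
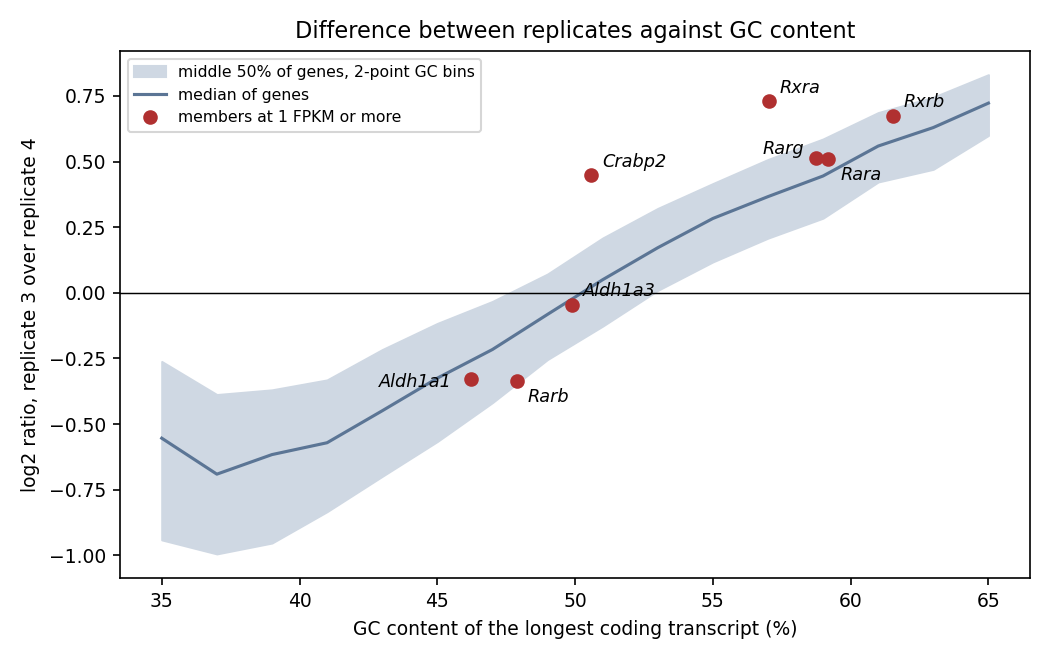
Log2 ratio of replicate 3 over replicate 4 against the GC content (%) of the longest coding transcript; the line is the median of genes and the band their middle 50% in bins of GC content, and red points are the 8 measurable genes. *Aldh1a1*, *Rarb* and *Aldh1a3* lie below 0, the 4 GC-rich receptors lie above 0.4, and *Rxra* and *Crabp2* stand above the band.

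When the values of each replicate were adjusted for GC content, an alternative chosen after seeing the data, *Rarg* came to 88.4, 89.9 and 85.8 FPKM and *Rara* to 13.8, 13.9 and 13.4. *Rxra* still differed between replicates, at 25.4, 23.5 and 18.4 FPKM. *Rarb* stood at 15.0, 13.3 and 15.1 FPKM, so *Rara* remained the higher of these 2 in replicate 3 only.

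The length by which a gene's reads are divided also bears on the order. *Aldh1a1*, *Aldh1a2* and *Crabp1* have 1 annotated transcript each, while *Rxrb* has 11, *Rara* 8, *Rarg* and *Rxra* 6, *Aldh1a3* 5, *Rarb* 3 and *Crabp2* 2. The length the authors used for such genes is not given in the sources used here, and if it was that of all exons joined, the reads behind *Rarg* numbered 19884 to 20044 and those behind *Aldh1a3* 8585 to 12549 per replicate. Dividing the same reads by the longest coding transcript, an alternative whose levels and shares were added after seeing the data, gave mean levels of 124 FPKM for *Rarg*, 53.1 for *Aldh1a3*, 25.4 for *Rxra*, 22.4 for *Rxrb*, 18.7 for *Rara* and 15.7 for *Rarb*. This put *Rara* above *Rarb*, with a mean log2 ratio of 0.24, and brought *Rxra* and *Rxrb* to within a log2 ratio of 0.17. With the shortest coding transcript, *Rarg* came to 391 FPKM, *Aldh1a3* to 220, *Rxra* to 199 and *Rxrb* to 69.6. Under this length *Aldh1a1* made up 3.58% of the ALDH1A sum, *Rara* 7.08% and *Rarb* 7.82% of the RAR sum, and *Rxrb* 26.1% of the RXR sum, all more than 1.5 times below the shares of the deposited values. On mean levels, *Rarg* and *Aldh1a3* thus remained first and second under all 3 lengths. With the shortest length, however, *Aldh1a3* did not lie above *Rxra* in every replicate.

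**Figure D4:**
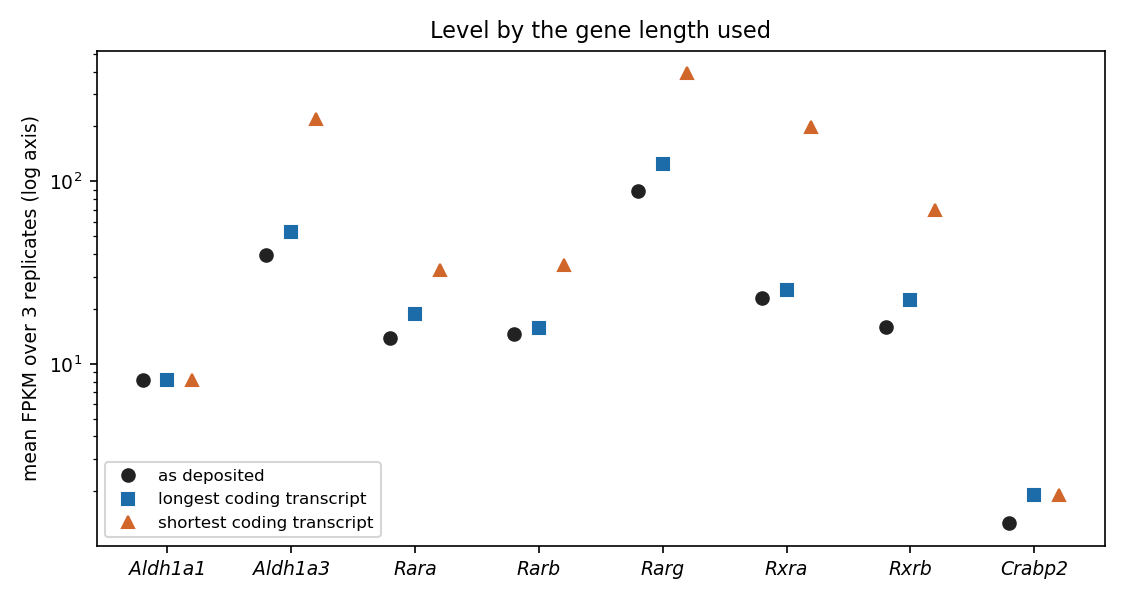
Mean FPKM over 3 replicates (log axis) of the 8 measurable genes as deposited and after dividing by the length of the longest or the shortest coding transcript, taking the deposited values to be per length of all exons joined. *Rarg* lies highest under each choice (89.0, 124 and 391 FPKM), *Aldh1a1* does not move, and *Rara* passes *Rarb* with the longest transcript.

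The other genes of the pathway were taken from 8 lists, which held 87 genes besides the 10. Of these, 60 were measurable and 44 stood at 1 FPKM or more in every replicate, against 57.7% and 44.1% of all genes, and the counts of each list below are to be read against the same shares. Genes that bring retinol into the cell or carry it were low, with a list median of 0.0133 FPKM against 0.277 FPKM over all genes. Of the 8 genes for retinol uptake and carriage, 1 was measurable, *Stra6*, the receptor for the retinol carrier of blood, at 0.58, 0.81 and 0.48 FPKM.

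For the step that feeds the ALDH1A enzymes, 12 of 18 genes for the interconversion of retinol and retinaldehyde were measurable and 9 stood at 1 FPKM or more, with a list median of 1.05 FPKM. The highest was *Dhrs3*, which reduces retinaldehyde back to retinol, at 231.44, 243.11 and 244.38 FPKM, a mean of 239.6 ± 7.13 and a rank of 199. Each *Dhrs3* value lay above every *Aldh1a3* and *Rarg* value. *Adh5*, a broad alcohol dehydrogenase, was next at 51.38, 47.26 and 51.30 FPKM, followed by *Rdh11* at 27.5 ± 2.04 and *Dhrs4* at 17.5 ± 0.386 FPKM. *Rdh10*, the main retinol oxidising enzyme of the embryo, was listed at 1.88, 1.83 and 1.67 FPKM.

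Of the 16 other aldehyde dehydrogenases, 14 were measurable and 12 stood at 1 FPKM or more. The highest was *Aldh2*, the mitochondrial enzyme that clears acetaldehyde, at 79.1 ± 11.9 FPKM, followed by *Aldh18a1* at 35.1, *Aldh9a1* at 23.6 and *Aldh3b1* at 23.4. On mean levels *Aldh1a3* therefore lay between *Aldh2* and *Aldh18a1*, but in replicate 3 *Aldh18a1* was higher than *Aldh1a3* (40.76 against 39.58 FPKM). Of 7 genes for retinyl esters and carotenoids, 4 were measurable, with the lipase gene *Pnpla2* highest at 46.5 FPKM, then *Dgat1* at 8.94 and *Lipe* at 2.44.

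Breakdown of retinoic acid was represented by 1 measurable gene of 3. *Cyp26b1* was listed at 0.89, 1.25 and 0.91 FPKM, *Cyp26c1* at 0, 0.01 and 0.02, and *Cyp26a1* at 0 in all 3 replicates, where 3 reads would give 0.0314, 0.0360 and 0.0254 FPKM. Beside the CRABPs and RARs, 6 of 7 other carriers and receptors were measurable and 2 stood at 1 FPKM or more. These were *Fabp5*, a fatty acid binding protein that can also carry retinoic acid, at 75.3 ± 6.53 FPKM, and its partner receptor *Ppard* at 30.3 ± 4.53. *Fabp5* was higher than *Crabp2* in every replicate. All 14 receptor co-regulators were measurable and 13 stood at 1 FPKM or more. The co-repressor genes *Hdac3*, *Tbl1x* and *Ncor1* stood at 51.4, 28.2 and 15.8 FPKM.

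**Figure D5:**
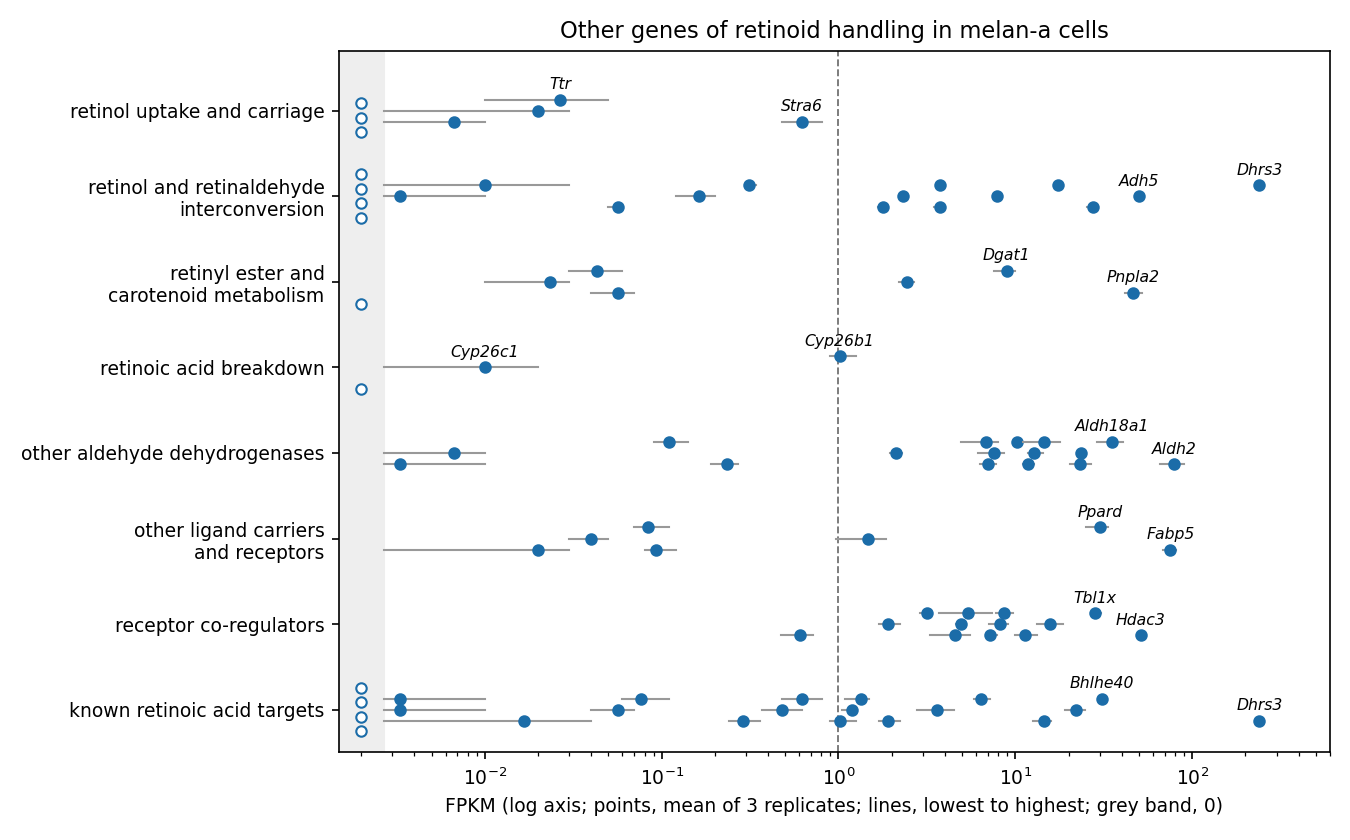
Mean FPKM (log axis; lines run from the lowest to the highest of 3 replicates, and reach the grey band where the lowest is 0) of genes in 8 lists of retinoid handling, 2 of whose genes are not plotted, with open circles for genes at 0 in all replicates and a dashed line at 1 FPKM. The genes for retinol uptake and retinoic acid breakdown lie near or below the dashed line, while *Dhrs3* (mean 239.6) lies farthest right.

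Of 23 genes known as targets of retinoic acid, *Rarb* and *Crabp2* included, 15 were measurable and 9 stood at 1 FPKM or more in every replicate, with a list median of 0.477 FPKM. *Dhrs3* was highest, followed by *Bhlhe40* at 30.9 ± 1.35, *Rai14* at 21.9 ± 2.88 and *Rarb* at 14.5 ± 1.70 FPKM. The list held both *Rarb* and *Cyp26a1*, classic targets that differed widely in these cells, the former at 12.63 to 15.95 FPKM and the latter at 0 in all replicates.

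The promoters of the 10 genes were searched for direct repeats of a half-site that was spelled AGGTCA or, in its place, AGTTCA as a variant, GGTTCA as another variant or GGGTCA as the last variant, in any combination and on both strands, with a spacer of 1 base (DR1), 2 bases (DR2) or 5 bases (DR5). Windows ran from 250 bases before to 50 after each start in the RefSeq table, which held 15 promoters of 8 of the 10 genes, and none of *Aldh1a3* or *Crabp2*. Only *Rarb* had a match, a DR5 at -53 to -37 from its 1 listed start, and DR5 matches were found in 32 of 32851 promoters (0.0974%). That start lies inside the gene as annotated, which begins at 17651381 on the minus strand, so the outermost start was not searched. The FPKM of *Rarb* is per gene and does not show which start was used. DR1 and DR2 occurred in 0.222% and 0.268% of promoters and in none of the 15. Among the pathway genes, *Cyp26a1* had a DR5 on the minus strand at -32 to -16 and *Bco1*, which cleaves carotenoids to retinaldehyde and was listed at 0 in all replicates, a DR1 on the minus strand at -56 to -44. The stretches around both DR5 matches are shown because they carry the same kind of element in genes with such different levels. They were placed in mm9 by exact match at chr14:17407997-17408073 (minus strand) and chr19:37772236-37772297 (plus strand). Capitals mark only the half-sites that form the DR5 matches.
Rarb: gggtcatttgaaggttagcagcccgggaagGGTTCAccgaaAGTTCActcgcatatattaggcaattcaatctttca
Cyp26a1: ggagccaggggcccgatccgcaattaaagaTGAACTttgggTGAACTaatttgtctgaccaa
In *Cyp26a1* the half-sites are read on the opposite strand, where both spell AGTTCA. These matches describe the letters in the windows, and binding of receptors was not measured here.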

How the data were processed

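RNA was isolated from 3 replicates of melan-a cells and sequenced as stranded mRNA libraries over 3 lanes per replicate. Per the study's methods, reads lost 10 bases by trimming, STAR 2.3.0e placed them on mm9, and they were counted per gene with HTSeq 0.5.3p3 on Ensembl 67. The authors deposited FPKM values with TMM scaling, given to 2 decimals. The conversion of counts to FPKM is not given in the sources used here, and because the values are not counts, no count model was applied.

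Gene symbols, positions and lengths came from an mm9 annotation of Ensembl 65, in which 374 of the 22698 genes are missing. Depth was estimated from low genes with 1 transcript, whose values must correspond to whole reads. Log2 ratios used FPKM + 0.01. The 8 pairs within families were compared within replicates by an exact two-sided sign-flip permutation test with Benjamini-Hochberg adjustment. Named genes were the 10 members, up to 4 of the highest genes of each list, genes whose role pairs with a member and the 2 nearest profiles of the highest member of each family; markers, *Aldh1a7*, *Cdkn2a* and list genes with a motif match were named besides, and 2 genes of the lists are not reported here. The members and lists were chosen with earlier results of these data known. Other pseudocounts, limits, medians, scaling, lengths, a GC adjustment and leaving out each replicate were tried. The code was tested on simulated data and used matplotlib 3.10.9, statsmodels 0.14.6, scipy 1.17.1, pandas 2.3.3 and numpy 2.4.6 under Python 3.11.15.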

Additional observations from a re-analysis of the deposited data

How the results depend on the processing

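Where a pair had the same direction in all 3 replicates, other pseudocounts, the median and leaving out a replicate could not reverse it. Because the GC adjustment takes out deviations from the mean over the replicates, it could hardly shift a mean log2 ratio. Nor could other lengths change *Aldh1a1* against *Aldh1a2*, with 1 transcript each. With these limits, of 72 values of the 8 pairs under other settings, 70 kept their direction. The exceptions were both for *Rara* against *Rarb*, whose mean log2 ratio of -0.07 ran from -0.29 to 0.14 when each replicate was left out in turn (0.14 without replicate 4, -0.29 without replicate 3) and came to 0.24 with the length of the longest coding transcript. Leaving out replicate 1 gave -0.07, so of the omissions only that of replicate 4 reversed the sign. By replicate the log2 ratio was -0.08, 0.35 and -0.50 in replicates 1, 3 and 4. Why the order changed was not tested. Of 70 levels of single genes under other settings, 49 moved by less than the SD between replicates and 21 by more. With 3 replicates, the median and leaving out 1 replicate cannot move a mean by as much as the SD. The median and leaving out replicate 1, 3 or 4 each gave 10 of the 49. Other lengths could not move *Aldh1a1*, *Aldh1a2* or *Crabp1*, with 1 transcript each. The 49 therefore do not show how firm the levels are. Of the 21, 9 came through rescaling each replicate to the same sum, which changes the unit. The longest and shortest transcript lengths gave 5 and 7. Counts of measurable genes stayed at 8 of 10 and the 44 pathway genes at 1 FPKM or more became 40 to 46. No paired analysis was possible because there is only 1 group of samples, so that no samples could be paired between groups. The ratios between genes were taken within each replicate. With 3 replicates of 1 condition no p-value under 0.25 can arise, and levels of genes with several transcripts depend on a length that is not given in the sources used here.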
